A study of Mus musculus with 6 samples.

Results

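The nuclear genes of oxidative phosphorylation were taken as the protein-coding genes of GENCODE M21 outside the mitochondrial chromosome whose symbols name a subunit of respiratory complexes I to V (Nduf, Sdha to Sdhd, Uqcr, Cox4 to Cox8 and Atp5). The rule found 94 gene models with 93 symbols among 21938 protein-coding gene models, because Atp5o is annotated as a short and a long model. Of these, 38 belonged to complex I, 8 to complex I assembly (the Ndufaf genes), 4 to complex II, 8 to complex III, 18 to complex IV and 18 to complex V. The chromatin of these genes was examined in Omni-ATAC-Seq libraries, in which a transposase inserts adapters into open DNA, made from 50000 nuclei each of mouse hearts at postnatal day 1. The Input libraries held nuclei of WT C57BL/6J hearts taken from a 2.2 M sucrose cushion with no immunoprecipitation. The Myc libraries held nuclei of Nkx2-5 Cre/+; R26RSun1-Myc-Egfp/+ hearts, captured after the same cushion with a Myc antibody by magnet-assisted nuclear immunoprecipitation (MAN-IP). In these hearts Cre is expressed from the Nkx2-5 locus and switches on a nuclear envelope tag at ROSA26, so the tag marks every cell whose lineage once expressed Nkx2-5 and not a single cell type. The PCM1 libraries held nuclei from hearts labelled WT, captured after the cushion with an antibody to PCM1, a protein at the nuclear surface of cardiomyocytes. Each group had 2 biological replicates, and the study methods name the dense cushion as the one chosen for cardiomyocyte nuclei, so the Input was itself a selected population.

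Oxidative phosphorylation couples electron transfer along complexes I to IV to a proton gradient across the inner mitochondrial membrane, which complex V uses to make ATP. Most subunits are encoded in the nucleus, and their promoters are known for sites of the factors NRF1, GABP, YY1 and Sp1, while a few subunits exist as paralogs of which one is used in heart and skeletal muscle and the other more broadly. The heart draws most of its ATP from this pathway, and its capacity grows around birth as the muscle turns from glucose to fatty acids.

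The deposited data were 1 list of MACS2 peaks per library, which give the fold enrichment of each summit and its p- and q-values as -log10, and the pileup of fragments at each summit was solved from the fold enrichment and the p-value. The lists held between 75336 and 131500 peaks, and the genome background of the deepest library, Input replicate 1, was 4.4 times that of the shallowest. A gene was said to have a TSS peak where a peak overlapped the 1 kb to either side of its 5′ end, and the peak with the smallest q-value was kept. Its rank percentile was its place by q-value among all peaks of the library, with 100 for the strongest and 0 for a gene with no peak. Its relative height was its pileup divided by the library median over the 12311 genes that had a TSS peak in all 6 libraries, so 1 is a typical open promoter. Where no peak was called, opening was not detectable at that library's depth.

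A check of the labels used Sun1, since the tag is a Sun1 cDNA that adds reads to coding exons. Of Sun1 coding exon peaks absent from the Input, each Myc library had 4, and the PCM1 libraries, labelled WT, had 3 and 7. The strongest of these peaks ranked at 57 and 55.5 for Myc and at 86.5 and 79.1 for PCM1. The PCM1 libraries therefore went against the genotype they are labelled with on this point, and the comparison of Myc with Input, whose fit they enter, is given with and without them. Of 6 cardiomyocyte markers, 5 had a TSS peak in every library and Tnni3 in none, and their summed relative height was 10.1 and 11.2 for Input, 4.83 and 5.73 for Myc and 13.7 and 13.6 for PCM1. Markers of other cells were lower in sum: 6 fibroblast genes reached 1.62 to 1.84 for Input, 2.02 to 2.07 for Myc and 1.26 to 1.6 for PCM1, and 6 endothelial genes 2.14 to 2.45, 2.28 to 2.72 and 2.62 to 2.82. Smooth muscle and pericyte genes, also 6, summed to 2.22 to 2.25, 1.57 to 1.88 and 2.06 to 2.63, whereas 4 of 6 immune genes, Ptprc and Csf1r among them, and 3 of 6 erythroid genes, the globins among them, had no TSS peak in any library. The part of these markers in the results was not tested. The heights of open promoters also spread less in Myc, where the 95th percentile of log2 relative height was 1.19 and 1.26 against 1.66 to 1.77 in the other libraries.

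Nearly every promoter of the set was open in every library. A TSS peak was found at 88 and 87 of 94 genes in Input, where 66.0% and 59.8% of all protein-coding genes had one. It was found at 89 and 88 genes in Myc, beside 63.7% and 63.5% of all genes, and at 85 and 86 genes in PCM1, beside 60.2% and 59.9%. The share of the set was 92.7% ± 1.57 (SD, n = 6 libraries), and its lowest library stood above the highest share of all genes. The median rank percentile of the set was 94.5 and 89.5 for Input, 95.5 and 95.2 for Myc and 90.0 and 89.7 for PCM1, whereas the median over all genes lay between 55.9 and 77.8. All 8 genes of complex III, all 4 of complex II and all 8 assembly genes had a TSS peak in all 6 libraries, as did 36 of 38 in complex I, 16 of 18 in complex V and 13 of 18 in complex IV. Complex IV thus held 5 of the 9 gene models that lacked a peak in at least 1 library.

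**Figure D1:**
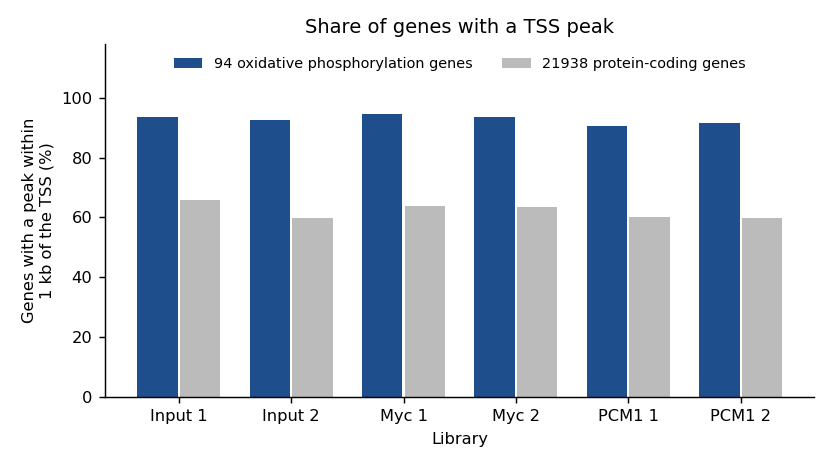
Bars show the percentage of genes with a peak within 1 kb of the TSS in each of the 6 libraries, for the 94 oxidative phosphorylation genes (blue) and for 21938 protein-coding genes (gray). The blue bars lie between 90.4% and 94.7% and each stands above the gray bar of its library, which lies between 59.8% and 66.0%.

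The 9 exceptions were few in kind. Cox7b2 and Cox8c, paralogs known mainly from testis, and Ndufa4l2, a paralog of Ndufa4 known as a target of hypoxia signalling, had no TSS peak in any library. Cox4i2, the paralog of Cox4i1 known from lung, had weak peaks at rank percentiles of 28.7 and 17.8 for Input and 23.1 and 10.8 for Myc, and no peak in the PCM1 libraries. Cox7b, which encodes the complex IV subunit VIIb of most tissues, had peaks of relative height 0.313 and 0.316 for Input, 0.441 and 0.458 for Myc and 0.212 for PCM1 replicate 2, with none detected in PCM1 replicate 1. Others turned on the annotation. The gene models of Cox7a2l and Atp5d start upstream of the transcript start where their peak lay, and with the start of any protein-coding transcript both had a strong peak in all 6 libraries, 2685 to 3691 bp inside the gene model. Atp5d, the delta subunit of the ATP synthase rotor, ranked between 94.0 and 97.4, and Cox7a2l, which encodes a factor of supercomplex assembly, between 90.2 and 97.1. The long model of Atp5o, 242585 bp on chr16:91684398-91926982, had no peak at its start, whereas the short model, on chr16:91925214-91931687, had relative heights of 1.3 and 1.37 for Input, 1.57 and 1.67 for Myc and 1.12 and 0.939 for PCM1.

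**Figure D2:**
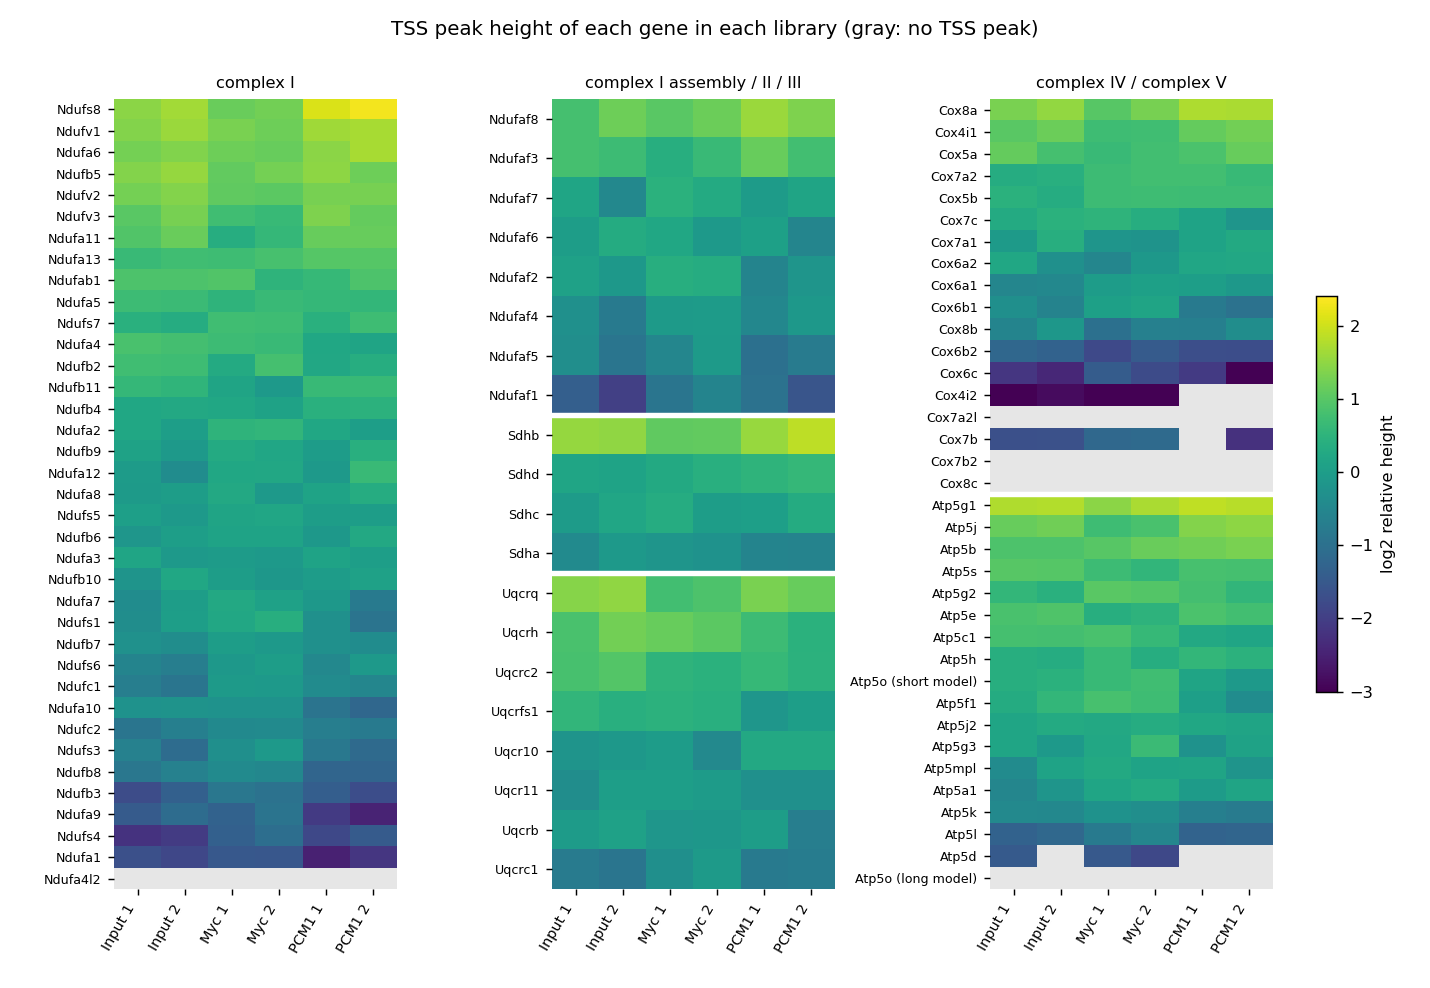
Each row is 1 of 93 gene models and each column a library, with color giving the log2 relative height of the TSS peak and gray marking no TSS peak. Genes are sorted by mean height within complex I (left), complex I assembly, II and III (middle) and complexes IV and V (right). Ndufs8 leads complex I and Atp5g1 complex V, and gray cells are most numerous in complex IV.

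Among the 85 genes with a TSS peak in all 6 libraries, the heights ranged widely. The highest on average was Atp5g1, which encodes subunit c of the membrane rotor of complex V, with relative heights of 3.36 and 3.43 for Input, 2.75 and 3.26 for Myc and 3.71 and 3.53 for PCM1. Next came Ndufs8, an iron-sulfur core subunit of complex I, with 2.77 and 3.14, 2.25 and 2.38, and 4.29 and 4.94 in the same order. Ndufv1, the flavoprotein subunit that accepts electrons from NADH, Sdhb, the iron-sulfur subunit of succinate dehydrogenase, and Cox8a, the broadly used isoform of subunit VIII, made up the 5 highest, with mean log2 relative heights between 1.43 and 1.47. The 5 lowest were Cox6c, Ndufa1, Ndufs4, Ndufa9 and Cox6b2, with mean log2 relative heights between -2.15 and -1.53. Cox6c, a small complex IV subunit, had 0.225 and 0.190 for Input, 0.371 and 0.296 for Myc and 0.235 and 0.121 for PCM1, and its kept PCM1 peaks lay 928 and 999 bp downstream of the TSS while those of the other libraries lay 50 to 59 bp downstream. Cox6b2, a testis paralog of Cox6b1, had 0.433 and 0.405 for Input and 0.287 to 0.366 in the other libraries. By complex, the median relative height was highest in complex V, at 1.3 and 1.35 for Input and 1.56 and 1.5 for Myc, whereas in the PCM1 libraries it stood at 1.18 and 1.12 and complex II was highest, at 1.21 and 1.37. Within complex II the 4 promoters spread widely, since Sdha, the flavoprotein subunit, lay between 0.667 and 0.937 and Sdhb between 2.13 and 3.65.

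The peaks of the set sat close to the start site. The median summit lay between -20.5 and -13 bp of the TSS in the 6 libraries, where negative is upstream, and 69.8% to 79.3% of summits lay within 100 bp of it, whereas the range was 53.9% to 58.1% for all genes with a TSS peak. No test was made of these positions, which describe the annotation as much as the chromatin. For 13 of the 85 genes the median summit lay more than 200 bp away. Several of these summits stood near the start of another gene: that of Atp5j lay 648 bp inside the gene, near the start of Gabpa at 700 bp, and that of Atp5f1 at 673.5 bp, near the start of Wdr77 at 730 bp. In all, 35 of 94 genes (37.2%) shared the 1 kb window with the start of another protein-coding gene, against 12.6% of all genes, and a peak there cannot be assigned to either gene. Partners of known mitochondrial or ribosomal function included Mrpl36, 29 bp from the start of Ndufs6, Mrpl47 beside Ndufb5, Timm8b, 98 bp upstream of Sdhd, and Rps28, 10 bp upstream of Ndufa7. Genes with a shared window had median relative heights of 1.12 to 1.30 across libraries and the others 1.06 to 1.17.

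**Figure D3:**
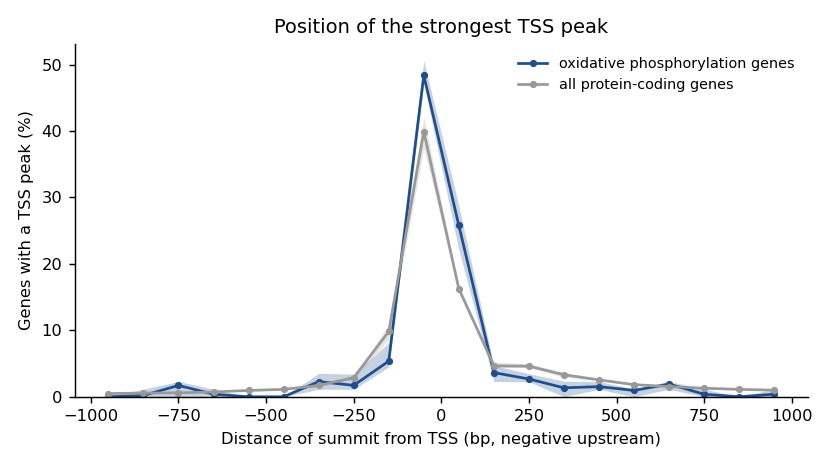
Lines give the percentage of genes with a TSS peak whose summit falls in each 100 bp bin of distance from the TSS (negative is upstream), as the mean of 6 libraries, and bands span the lowest to the highest library. In the 100 bp upstream of the TSS the oxidative phosphorylation genes (blue) reach 48.4% and all protein-coding genes (gray) 39.9%.

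The promoter sequence of the set was described with fixed words, searched on both strands in the 250 bases before and 50 after the TSS on mm10. The median ratio of observed to expected CpG was 0.77 in the set and 0.52 in all genes. The NRF1 word GCATGCGC was found in 10 of 94 promoters (10.6%), beside 3.71% of all promoters. The YY1 word AAGATGGC was found in 9 (9.57%), beside 2.92% of all promoters. The ETS word CCGGAAG, which the factor GABP reads, was found in 18 (19.1%), beside 10.8%. The SP1 word GGGCGG, in 42.6% of the set and 43.0% of all promoters, and the CCAAT word, in 40.4% and 39.0%, were about as frequent in both. For SP1 this held only around the TSS. In the 100 bases to either side of the summit it was found in 42.05% of the set and 61.3% of all genes. The ERR word TCAAGGTCA, known for the estrogen-related receptors, was found at Atp5g3 and Sdhd only (2.13%, beside 0.474%). The CRE word TGACGTCA was found at Ndufa10, Ndufa11, Ndufb2 and Uqcrfs1 (4.26%, beside 2.43%). The muscle word of MEF2, CTAAAAATA, was found at Cox6a2 only (1.06%, beside 0.479%). A match of letters is a description and not evidence of binding, and no test was made of these shares.

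The heart and muscle isoforms of complex IV were compared with their broadly used paralogs within each library. The isoforms Cox6a2, Cox7a1 and Cox8b are known from heart and skeletal muscle, and Cox6a1, Cox7a2 and Cox8a from most tissues. The 150 bases before each start are shown because they set the pairs apart: the muscle isoforms had low CpG ratios of 0.140, 0.304 and 0.115, against 1.03, 0.833 and 0.842 for the broadly used ones. The sequences are from RefSeq GRCm38.p6, the assembly also called mm10, and read 5′ to 3′ on the strand of the gene, with capitals marking the words named above.
Cox6a2 (chr7:128206388-128206537, minus strand): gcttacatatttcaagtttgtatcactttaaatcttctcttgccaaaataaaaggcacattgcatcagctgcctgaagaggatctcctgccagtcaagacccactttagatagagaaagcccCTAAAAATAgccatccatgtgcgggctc
Cox6a1 (chr5:115348982-115349131, minus strand): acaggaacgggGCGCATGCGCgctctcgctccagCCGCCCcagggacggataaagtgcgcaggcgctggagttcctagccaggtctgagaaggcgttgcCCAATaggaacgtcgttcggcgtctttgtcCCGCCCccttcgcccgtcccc
Cox7a1 (chr7:30183994-30184143, plus strand): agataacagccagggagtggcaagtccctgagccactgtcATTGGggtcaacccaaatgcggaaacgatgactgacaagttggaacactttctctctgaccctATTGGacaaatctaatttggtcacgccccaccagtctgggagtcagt
Cox7a2 (chr9:79759879-79760028, minus strand): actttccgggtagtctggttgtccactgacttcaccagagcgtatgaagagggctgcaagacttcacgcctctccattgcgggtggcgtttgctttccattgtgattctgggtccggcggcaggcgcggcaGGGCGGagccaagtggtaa
Cox8b (chr7:140900447-140900596, minus strand): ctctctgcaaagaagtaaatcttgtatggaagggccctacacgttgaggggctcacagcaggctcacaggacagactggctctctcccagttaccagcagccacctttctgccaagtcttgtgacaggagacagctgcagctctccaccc
Cox8a (chr19:7217617-7217766, minus strand): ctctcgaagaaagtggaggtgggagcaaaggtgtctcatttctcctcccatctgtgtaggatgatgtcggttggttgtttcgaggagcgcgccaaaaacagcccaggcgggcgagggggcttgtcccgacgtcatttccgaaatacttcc
The capitals mark the MEF2 word in Cox6a2, where it starts 28 bases before the TSS. In Cox6a1 they mark 2 overlapping NRF1 words, 2 SP1 words and a CCAAT word. Cox7a1 holds CCAAT words on the opposite strand and Cox7a2 an SP1 word, while Cox8a and Cox8b hold none of the words in these bases. In the full window searched, Cox8a held ETS and CCAAT words, and Cox6a1 also held an ETS word and Cox6a2 a CCAAT word.

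All 3 muscle isoforms had an open promoter in every library, and the pairs differed in how strongly. Cox6a2 ranked at 95.1 and 85.7 for Input, 90.5 and 93.5 for Myc and 91.3 and 90.9 for PCM1, and Cox6a1 at 89.2 and 82.1, 93.5 and 94.0, and 87.1 and 85.7. Cox6a2 was thus above its paralog in both Input and both PCM1 libraries and below it in both Myc libraries, and over the 6 libraries the difference of 2.58 ± 3.52 percentile points (SD, n = 6 libraries) did not pass a two-sided exact permutation test that flips the signs of the differences (p = 0.125, adjusted p = 0.125 over 5 pairs). Cox7a1 lay below Cox7a2 in 6 of 6 libraries, with a mean difference of -3.68 ± 2.18 points (p = 0.0312, adjusted p = 0.0391, same exact test). Cox8b, at relative heights of 0.496 to 0.911, lay below Cox8a, at 2.00 to 3.34, in 6 of 6 libraries, with a mean difference in rank of -14.9 ± 5.20 points (p = 0.0312, adjusted p = 0.0391, exact test). The pairs with a paralog of other tissues differed by -84.3 ± 11.6 points for Cox4i2 minus Cox4i1 and by -95.2 ± 3.1 for Ndufa4l2 minus Ndufa4. No p is read from these, because a gene with no peak was set to rank 0, which fixes the sign for Ndufa4l2 in every library and for Cox4i2 in both PCM1 libraries. The adjustment over 5 pairs still includes them, which makes the adjusted p of Cox7a1 and Cox8b smaller than it would be without them. The differences of Cox4i2 and Ndufa4l2 also depended on the window: with the strongest peak in the gene and 2 kb to either side they were -25.2 and -11.3, since Ndufa4l2 had a peak with its summit at -1982 to -1967 bp from its start, at rank percentiles of 76.0 to 92.1. The p of 0.0312 is the smallest that 6 libraries allow, and leaving out any 1 library makes 0.05 out of reach. Ranked by fold enrichment in place of q-value, Cox6a2 lay 7.19 points above Cox6a1 on average and passed the exact test (adjusted p = 0.0312).

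**Figure D4:**
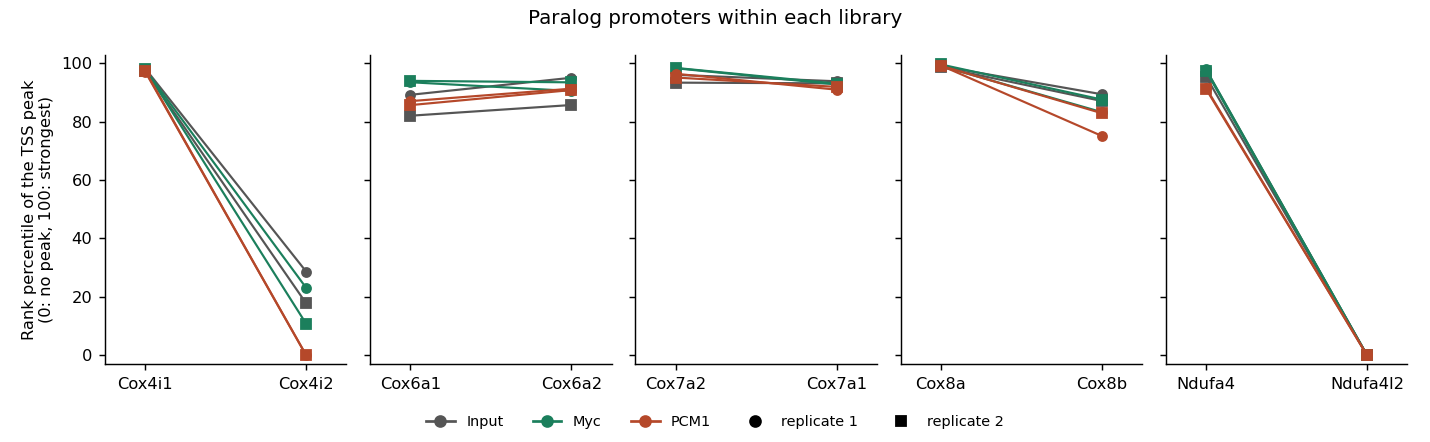
Each panel joins the rank percentile of the TSS peak of the broadly used paralog (left) to that of the muscle or other-tissue paralog (right), with 1 line per library, color for the group and marker shape for the replicate (circle 1, square 2). Lines fall to 0 (no peak) for Ndufa4l2 and steeply for Cox4i2, and mildly for Cox8b and Cox7a1, whereas for Cox6a2 they rise in Input and PCM1 and fall in Myc.

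Heights were then compared between the groups in 1 limma fit of all 12311 genes with Benjamini-Hochberg adjustment, in which a difference is in log2 relative height and 85 genes of the set were tested. With bulk nuclei, fewer nuclei with an open promoter and less opening per nucleus cannot be told apart.

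Nuclei of the Nkx2-5 lineage differed from Input at 24 genes of the set, of which 13 were higher and 11 lower in Myc. Over all genes tested, 4.20% were higher and 20.8% lower, while the set had 15.3% and 12.9%. Without the mean-variance trend of the fit 10 genes of the set were called, 7 higher and 3 lower, beside 2.95% and 12.1% of all genes. With the fold enrichment as deposited 0 were called (14 at an unadjusted p under 0.05 in limma), where none of the 12311 genes was called either. The median log2 difference was 0.10 in the set and -0.11 over all genes. The gene with the largest difference was Ndufaf1, an assembly factor of complex I, with relative heights of 0.388 and 0.253 for Input and 0.538 and 0.676 for Myc (log2 difference 0.95 ± 0.27, SE, adjusted p = 0.0112, and 0.0528 without the trend). Ndufs4, an accessory subunit near the NADH-binding end of complex I, had 0.215 and 0.241 in Input and 0.392 and 0.486 in Myc (0.94 ± 0.27, adjusted p = 0.0114). Ndufc1 and Ndufs6 (accessory subunits), Ndufs3 (a core subunit of complex I), Uqcrc1 (a core protein of complex III), Atp5a1 (the alpha subunit of ATP synthase) and Cox6b1 (a subunit facing the intermembrane space) were also higher in Myc, by 0.56 to 0.73. Among the genes with lower peaks in Myc, Uqcrq, a small subunit of complex III, had 2.67 and 2.85 in Input and 1.69 and 1.87 in Myc (-0.63 ± 0.11, adjusted p = 0.000191), and -0.32 (adjusted p = 0.054) after quantile normalization. Ndufa11, an accessory subunit of the membrane arm, also had lower peaks in Myc (-0.56 ± 0.13, adjusted p = 0.00155), but its kept summits lay at -749 to -636 bp, and within 200 bp of the TSS the difference was 0.38 (adjusted p = 0.386). Uqcrq shared its window with Gdf9, which starts 192 bp upstream, and its kept summits lay at -199 to -192 bp except in Myc replicate 1. Ndufs3, Ndufs6, Atp5a1 and Ndufa11 shared theirs with Kbtbd4, Mrpl36, Haus1 and Vmac. None of these peaks can be assigned to 1 gene. Leaving out any 1 library of Input or Myc, which leaves 1 in that group, gave fewer calls. The median difference of the set was then 0.02 to 0.14, beside -0.12 to -0.11 over all genes. With both PCM1 libraries left out of the fit 34 genes of the set were called. Of these, 23 were higher and 11 lower, beside 6.83% and 22.2% of all genes.

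The direction of these differences moved with the height of the promoter. In the lowest quartile of mean height over all genes, 2 of 8 genes of the set were higher in Myc and none lower, and in the highest quartile 1 of 23 was higher and 9 were lower, where 57.5% of all genes of that quartile were lower. The median difference in the set was 0.62, 0.34, 0.12 and -0.27 from the lowest to the highest quartile, beside 0.01, 0.05, -0.06 and -0.38 over all genes. In each quartile the median of the set stood above that of all genes, a description with no test. After quantile normalization, which gives the libraries the same distribution of heights and moved the median of all genes from -0.11 to 0.01, 19 genes of the set were higher in Myc and 2 lower, with a background of 5.69% and 7.64%. Of the 24 genes, 13 were called in both fits. Ndufs8 had -0.35 (adjusted p = 0.0219) with median scaling and 0.12 (adjusted p = 0.429) with quantile normalization, and Atp5g1 had -0.18 (adjusted p = 0.232) and 0.51 (adjusted p = 0.00173). The 5 tested cardiomyocyte markers had a median difference of -0.63, with 2 lower (Myh6 and Tnnt2) and none higher. Of the tested markers of other cells, the endothelial Tie1 and the mural Notch3 were lower in Myc with median scaling and none was higher, and after quantile normalization neither passed (adjusted p = 0.0564 and 0.0688).

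PCM1 nuclei differed from Input at fewer genes. In the set 4 genes were higher and 7 lower in PCM1, and over all genes 6.98% were higher and 7.74% lower, so the 4.71% and 8.24% of the set were near the background in both directions. Ndufa9, an accessory subunit of complex I, had the largest difference, with relative heights of 0.368 and 0.468 in Input and 0.235 and 0.182 in PCM1 (-1.01 ± 0.27, SE, adjusted p = 0.0145). Ndufa10, another accessory subunit, had 0.844 and 0.861 in Input and 0.529 and 0.439 in PCM1 (-0.82 ± 0.19, adjusted p = 0.0064). In Myc the same promoter stood at 0.839 and 0.845, beside its Input values. Ndufa4, now counted as a complex IV subunit, Atp5f1, of the peripheral stalk of complex V, Atp5c1, its central stalk, Uqcrfs1, the Rieske protein of complex III, and Uqcrh, its hinge protein, were lower, with log2 differences of -0.63 to -0.47. Ndufa4 shared its window with Phf14, which starts 312 bp upstream, near its kept summits (-329 to -276 bp). Atp5f1, Atp5c1 and Uqcrh shared theirs with Wdr77, Kin and Lrrc41, and the Uqcrh summits differed between the Input libraries (-358 and 2 bp). The 4 genes with higher peaks in PCM1 were Ndufs8 (0.64 ± 0.11, adjusted p = 0.000768), the assembly factor Ndufaf8 (0.47), Sdhd, a membrane anchor of complex II (0.40), and Atp5b, the catalytic beta subunit (0.38), the last named after its values were seen. Ndufaf8 and Sdhd shared their windows with Tepsin and Timm8b. After quantile normalization 2 were higher and 6 lower, beside 4.77% and 6.12% of all genes. Leaving out either Input library or PCM1 replicate 2 gave fewer calls and leaving out PCM1 replicate 1 gave more, each with 1 library left in that group. The median difference of the set was then -0.01 to 0.05, beside -0.0017 to 0.03 over all genes.

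The widest differences were between the Myc and PCM1 nuclei. In this comparison 23 genes of the set were higher in Myc and 18 lower, against 12.7% and 28.2% of all genes. The set thus had 27.1% higher and 21.2% lower. Ndufs8, on chr19:3908863-3912774, had relative heights of 2.25 and 2.38 for Myc and 4.29 and 4.94 for PCM1 (-0.99 ± 0.11, SE, adjusted p = 2.06e-07). With median scaling it was also lower in Myc and higher in PCM1 than in Input. After quantile normalization its difference between Myc and PCM1 was -0.38 (adjusted p = 0.00387), and with the deposited fold -0.12 (adjusted p = 0.217). Ndufa9, on chr6:126821721-126849136, had 0.406 and 0.528 in Myc and 0.235 and 0.182 in PCM1 (1.16 ± 0.27, adjusted p = 0.00129). These promoters mark the ends of the comparison, and the 150 bases before their starts are given here, again from RefSeq GRCm38.p6 with the words in capitals.
Ndufs8 (chr19:3912775-3912924, minus strand): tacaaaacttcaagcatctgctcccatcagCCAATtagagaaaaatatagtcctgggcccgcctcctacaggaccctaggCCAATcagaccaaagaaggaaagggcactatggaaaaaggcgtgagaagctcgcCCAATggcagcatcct
Ndufa9 (chr6:126849137-126849286, minus strand): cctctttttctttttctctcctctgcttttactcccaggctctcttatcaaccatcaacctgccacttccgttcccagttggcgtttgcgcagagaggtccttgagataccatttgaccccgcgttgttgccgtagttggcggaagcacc
Ndufs8 holds CCAAT words starting 120, 70 and 16 bases before its TSS, and Ndufa9 holds none of the words in these bases.

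Other genes with higher peaks in Myc than in PCM1 were Cox6b1 (0.98 ± 0.19, adjusted p = 0.000197), Cox6c (0.97 ± 0.32, adjusted p = 0.0176, with PCM1 peaks at another place, as given above), Atp5f1 (0.94 ± 0.15, adjusted p = 3.29e-05) and Ndufs1, the largest core subunit of complex I (0.90 ± 0.20, adjusted p = 0.000731). Ndufa10, Ndufs3, Ndufa1 and Ndufb8 were higher by 0.78 to 0.80. Of these, Atp5f1 shared its window with Wdr77, Ndufs1 with Eef1b2, Ndufs3 with Kbtbd4 and Ndufa1 with Rnf113a1. Among the muscle isoforms, Cox6a2 stood at 0.692 and 0.923 in Myc and 1.15 and 1.18 in PCM1 (-0.54 ± 0.18, adjusted p = 0.0203), and Cox7a1 at 0.874 and 0.852 against 1.10 and 1.21 (-0.42 ± 0.16, adjusted p = 0.0432). After quantile normalization both were still called (adjusted p = 0.0289 and 0.0496). Cox8b did not pass (-0.33 ± 0.21, adjusted p = 0.216). Cox8a, the broadly used paralog, was also lower in Myc (-0.58 ± 0.12, adjusted p = 0.000344), although after quantile normalization it was not (-0.09, adjusted p = 0.553).

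The scaling again moved the balance of directions. After quantile normalization 24 genes of the set were higher in Myc than in PCM1 and 7 lower, beside 16.5% and 15.9% of all genes, and 28 of the 41 genes were called in both fits. Atp5g1 was called in both with opposite signs, at -0.27 (adjusted p = 0.0463) and 0.49 (adjusted p = 0.000718). With median scaling, all 5 tested cardiomyocyte markers were lower in Myc than in PCM1, with a median log2 difference of -0.71, and their part in the differences of the set was not tested. Leaving out any 1 library of Myc or PCM1 gave fewer calls. The median difference of the set was then 0.09 to 0.16, beside -0.15 to -0.13 over all genes.

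**Figure D5:**
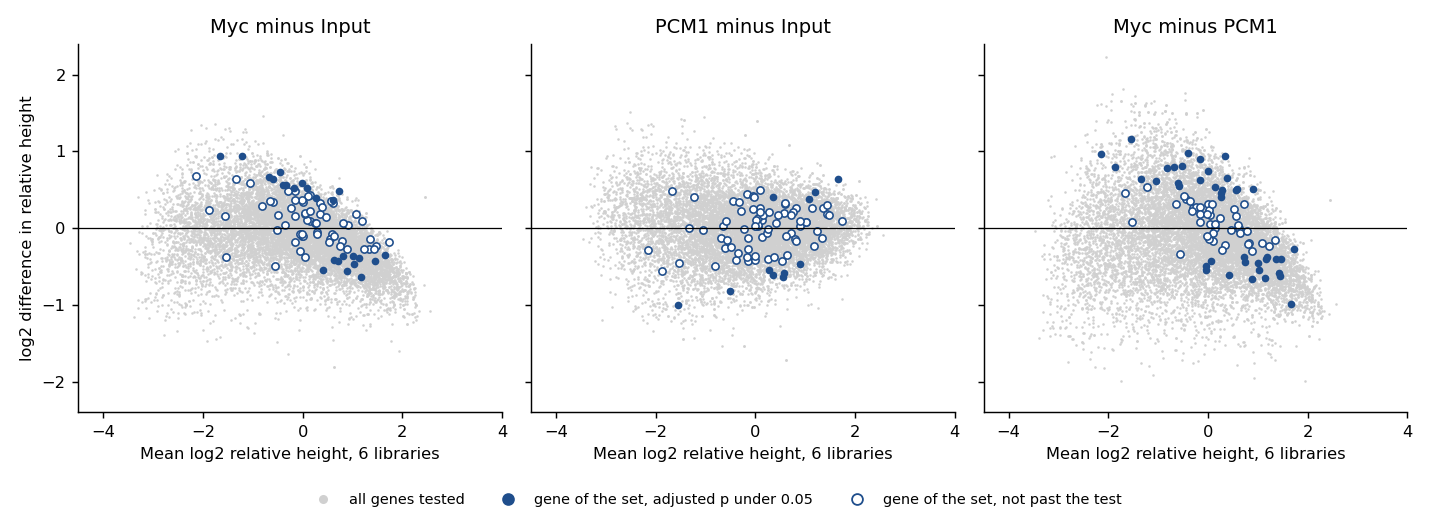
Panels plot the log2 difference in relative height between 2 groups against the mean log2 relative height over 6 libraries, for all 12311 genes tested (gray) and for 85 oxidative phosphorylation genes (blue, filled where the adjusted p is under 0.05). In both comparisons with Myc the blue points run from above 0 at low promoters to below 0 at high promoters. In PCM1 minus Input they scatter around 0.

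The calls were also counted by complex, with no test. Between Myc and PCM1, complex I had 10 genes higher and 6 lower of 36 tested, complex III had 3 and 2 of 8, complex IV had 3 and 4 of 13, and complex V had 5 and 3 of 16. Complex II had 1 lower of 4, which was Sdhb, and the assembly genes had 2 and 2 of 8. Of all genes tested, 12.7% were higher and 28.2% lower. Between Myc and Input, complex I had 5 higher and 4 lower, complex II 0 and 1, and complex III 1 and 2. Complex IV had 3 and 1, complex V 2 and 3, and the assembly genes 2 and 0. Of all genes tested, 4.20% were higher and 20.8% lower. Cox4i1, the broadly used form of subunit IV, was lower in Myc than in Input (2.02 and 2.29 against 1.66 and 1.68, -0.37 ± 0.12, adjusted p = 0.0231, but -0.12 and adjusted p = 0.511 after quantile normalization), and Cox6a1 and Cox7a2 were higher, by 0.53 (adjusted p = 0.0216) and 0.36 (adjusted p = 0.0382). Cox4i1 shared its window with Gm27021 and Emc8. Of the 3 genes for subunit c, Atp5g2 was higher in Myc than in Input (0.49 ± 0.13, adjusted p = 0.00624), whereas Atp5g1 and Atp5g3 did not pass (-0.18 and 0.43). The kept Atp5g2 summits lay 1246 to 1262 bp downstream of its 5′ end, and 21 to 37 bp from another transcript start of the gene.

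Genes that regulate or assist the pathway were counted from lists. All 15 regulators had a TSS peak in every library, and 8 (53.3%, beside 20.8% of all genes) were lower in Myc than in Input with none higher, among them Ppargc1a and Esrra, a coactivator and a nuclear receptor that drive mitochondrial genes, Ppara, the receptor of fatty acid oxidation, and Tfam, which packages mitochondrial DNA. The median relative height of the regulators was 1.87 and 1.96 in Input, but some were low. Ppargc1a stood at 0.456 and 0.418 in Input and 0.217 and 0.268 in Myc. Esrrb, named after its values were seen, stood at 0.534 and 0.62 in Input and 0.266 and 0.239 in Myc. Both were among the 8, and both were also called after quantile normalization (adjusted p = 0.0377 and 0.00355 in limma). Of all genes, 57.5% were lower in Myc in the highest quartile of height and 4.65% in the lowest. The part of height was not tested. Ppara stood at 3.06 and 3.11 for Input, 1.46 and 1.36 for Myc and 2.82 and 2.91 for PCM1, so that the Myc libraries lay below all others. Esrra stood at 5.12 and 5.37, 2.76 and 2.89, and 5.19 and 5.30, in the same order. After quantile normalization 4 of the 15 were lower in Myc, beside 7.64% of all genes. Ppara was among them at -0.91 (adjusted p = 3.79e-05), while Esrra was not called (-0.17, adjusted p = 0.169). Gabpa had the values of Atp5j, with which it shares its peak. Between PCM1 and Input, 2 regulators were higher in PCM1 and 1 was lower (13.3% and 6.67%, beside 6.98% and 7.74% of all genes). Of 30 assembly factors outside the symbol rule, 28 had a TSS peak in all 6 libraries, and 5 were lower and none higher in Myc than in Input, while 5 were higher and 7 lower in Myc than in PCM1. The 17.9% and 25% lower were near the 20.8% and 28.2% of all genes. After quantile normalization 3 were higher and 1 lower in Myc than in Input, beside 5.69% and 7.64% of all genes. Against PCM1, 7 were then higher and 2 lower in Myc, beside 16.5% and 15.9% of all genes, so the background shifted as well. Nubpl, which delivers iron-sulfur clusters to complex I and was named after its values were seen, stood at 0.636 and 0.669 in Myc and 0.221 and 0.212 in PCM1 (1.59, adjusted p = 2.01e-05), and at 0.423 and 0.62 in Input. Of 6 carriers and related genes, 5 were tested, and Hccs, which attaches heme to cytochrome c, was lower in Myc than in Input (-0.81, adjusted p = 2.51e-05) and than in PCM1.

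The ribosomal protein genes, another set with open promoters in most cells, had shares of the same order. Peaks at the TSS in all 6 libraries were found for 90.7% of 86 cytosolic and 97.4% of 78 mitochondrial ribosomal protein genes, beside 90.4% in the oxidative phosphorylation set. In Myc against Input, 21.8% of the tested cytosolic ribosomal genes were higher and 7.69% lower, and 11.8% and 10.5% of the mitochondrial ones. The differences between these lists and the oxidative phosphorylation genes were not tested.

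Few peaks lay elsewhere in these genes, with medians near those of all genes. The median number of peaks in the gene and 2 kb to either side was 2 in Input replicate 1 and 1 in the other libraries. Over all genes it was 2 in Input replicate 1 and both Myc libraries and 1 in the others. The mean was 1.70 to 2.35 in the set and 2.57 to 4.19 over all genes, with median lengths of 7419 bp and 17420 bp. The largest numbers were in the long models. The long Atp5o model held 36 and 24 peaks for Input, 28 and 28 for Myc and 24 and 23 for PCM1. Ndufaf2, on chr13:108002715-108158623, held 12 and 5, 7 and 9, and 5 and 7. Ndufs4, on chr13:114287795-114388258, and Ndufa10, on chr1:92439010-92473860, held between 3 and 5 in each library, and Atp5g2 held 4 in each.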

How the data were processed

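Omni-ATAC-Seq libraries of nuclei from hearts at postnatal day 1 were compared in 3 groups of 2 biological replicates, grouped by their titles. Per the labels and methods, the authors trimmed the reads, mapped them to mm10 with Bowtie2 2.3.3.1, marked duplicates with Picard 2.2.1, removed blacklisted regions with bedtools, shifted reads for the transposase offset and called peaks with MACS2 2.1.0.20160309 in each library, with no pooling. The deposited lists give for each summit the fold enrichment over the local background (a ratio), -log10 p and -log10 q, with a score that repeats the q-value. Regions below the calling threshold are not in the lists, and read totals were not used here.

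The pileup was solved from the fold and p and came out whole within 0.02 at all but 3 peaks of Input replicate 1 and 1 of Myc replicate 1. Genes were those of GENCODE M21. Relative heights were log2 transformed and fitted with limma 3.58.1 in R 4.3.3 for 3 groups, with a mean-variance trend and Benjamini-Hochberg adjustment over 12311 genes, and calls were made at 0.05. The group SDs rest on 2 libraries each. In the limma fit each gene had 3 residual degrees of freedom of its own and 21.4 prior ones from the trend over 12311 genes. Its p-values thus rest mainly on the spread typical of all genes at that height, and less on that of the gene's own libraries. Paralogs were compared by an exact sign-flip test over 6 libraries. Named genes were the 10 with the largest difference among those called in each comparison, the 5 highest and 5 lowest promoters, all genes lacking a TSS peak, the 5 with the most peaks in the gene and the paralog pairs. From the other lists of the pathway at most 6 were named, and any further gene was named after its values were seen. The values of 1 member are not reported here. The members and lists were chosen with earlier results of these data known. The alternatives were a stricter q-value, equal numbers of peaks, a narrower TSS window, all transcript starts, rank by fold, quantile normalization, no trend, the deposited fold, a replicate block and leaving out each library. Fitting without both PCM1 libraries and the limma fit with all transcript starts were added after seeing the data. The scripts were tested on simulated data, and Python 3.11.15 was used with scipy 1.17.1. Replicate numbers do not pair the samples: the correlations of deviations between groups were -0.0076 to 0.0284.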

Additional observations from a re-analysis of the deposited data

Results flagged for a closer look

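The muscle isoform Cox6a2 and its broadly used paralog Cox6a1 differed in order between groups. The rank of Cox6a2 minus that of Cox6a1 was positive in both Input libraries (5.84 and 3.67 percentile points) and both PCM1 libraries (4.27 and 5.16) and negative in both Myc libraries (-2.98 and -0.507). The mean difference was 6.5 points higher in Input than in Myc, and the mean of Myc minus that of PCM1 was -6.46 points. These differences between groups were not tested: they were noted because every library of one group lay on the opposite side of 0 from every library of the other.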

How the results depend on the processing

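With a window of 200 bp the share of genes with a TSS peak was 88.3%, and with the start of any protein-coding transcript 95.2%, where the median summit lay at -21.9 bp. With the gene and 2 kb to either side, Cox4i2 minus Cox4i1 was -25.2 and Ndufa4l2 minus Ndufa4 -11.3 points. In sequences around the summit, the CCAAT word stood in 29.5% of the set and 30.7% of all genes. The SP1 word stood in 42.05% and 61.3%. Ranked by fold enrichment, Cox6a2 minus Cox6a1 was 7.19 points and passed the exact test. The count of called genes was 10 (Myc against Input), 4 (PCM1 against Input) and 26 (Myc against PCM1) without the mean-variance trend, where 2.95% of all genes were higher and 12.1% lower, 2.36% and 3.04%, and 11.1% and 23.3%. With the deposited fold in limma it was 0 (14 at an unadjusted p under 0.05), 17, all lower in PCM1, and 37, all higher in Myc, and over all genes the same directions prevailed, with 15.5% lower and 0.0406% higher in PCM1 and 26.7% higher and 0.723% lower in Myc. Among the genes named for the size of their difference, Ndufa11 alone turned its direction between Myc and Input, at 0.38 with a window of 200 bp, while Atp5g1 and Ndufs8 turned with quantile normalization in the comparisons given above. Leaving out 1 library gave 5 to 33, 5 to 14 and 23 to 41 called genes in these comparisons. The number of calls over all genes also changed with the library left out, so these ranges do not describe the set alone. Leaving out 1 library also gave -87.2 to -81.7 points for Cox4i2 minus Cox4i1 and -4.36 to -3.3 for Cox7a1 minus Cox7a2. It gave -16.0 to -13.1 for Cox8b minus Cox8a and -96.0 to -94.7 for Ndufa4l2 minus Ndufa4. In the exact test 5 libraries cannot reach 0.05 (p = 0.0625). With a replicate block the counts were 24, 12 and 42. Of all genes 4.35% were then higher and 21.6% lower, 7.61% and 8.26%, and 12.9% and 28.7% in the same order. With the block Sdhd was no longer called in PCM1 against Input (adjusted p = 0.0509). Among values of single named genes, 32 were no longer past the threshold under other settings and 213 kept direction and call, and with 1 library left out 47 were no longer past it and 133 were. What depth limits was not tested. The cause of these changes was not tested.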
